A study of Rattus norvegicus with 4 samples.

Results

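The oligodendrocyte myelin spots of the trigeminal root were 616 of the 6773 tissue-covered spots in 4 Visium capture areas. A spot was eligible when it held 2000 or more unique molecular identifiers (UMIs, each counting 1 captured RNA molecule) and no more than 1 UMI in the sum of Slc32a1, Slc6a5, Gad1 and Gad2, which are genes of inhibitory neurons. This left 6151 eligible spots. In each area the 10% with the highest sum of Mobp, Mog, Opalin, Ermn and Hapln2, in CPM (counts scaled to the same total in every spot), were kept as myelin spots. TN1 had 125 of them, TN2 111, TN3 180 and HC 200, and the other 5535 eligible spots served for comparison. The share was set by the rule, so these numbers do not measure how much central myelin an area held.

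Expression was profiled with Visium, in which RNA of a tissue section is caught on an array of barcoded spots, each wide enough for several cells of different types. TN1, TN2 and TN3 each held root, semilunar ganglion and proximal branches taken from 1 adult male Sprague-Dawley rat of wild type genotype, on the side where the trigeminal root had been compressed mechanically. HC held tissue labelled as healthy control from 2 rats, whose spots the barcodes do not separate, and was taken as 1 sample. The series description places HC on the healthy side of rats that also gave TN tissue, whereas the methods describe a sham operation, and how long after compression the tissue was taken is not given for these sections. Each area was a separate library, so condition and capture area coincide and cannot be told apart. Spots of 1 area share a library, and in TN an animal, and were not treated as replicates. UMIs were summed over the spots of an area before any test.

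Oligodendrocytes are the myelinating glia of the central nervous system. They wrap segments of many axons with a membrane rich in cholesterol and galactolipids, compacted by proteins such as myelin basic protein. In the trigeminal root, this central myelin covers the stretch next to the brain stem and gives way at a transition zone to the peripheral myelin of Schwann cells, in which Pmp22 is a major protein. Astrocytes lie among the oligodendrocytes on the central side of that zone.

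The sequencing depth behind the myelin spots was uneven. Their sums were 811385, 903843 and 922772 UMIs for TN1, TN2 and TN3 and 2468564 for HC. A myelin spot had a median depth of 5613, 7602, 4402 and 12187.5 in the same order, against 8920, 34132.5, 16611 and 15471 in the other eligible spots. In all 4 areas the myelin spots were thus the shallower ones, and HC was the deepest among them. Of the barcodes in the myelin spots, 542 occurred in 1 area and 37 in 2 areas, and none (0) occurred in more.

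TN1 stood apart from the other TN areas before any test. Its myelin spots held 1788 CPM of a list of central neuron genes, whereas TN2 had 1015, TN3 354 and HC 844, with Snap25, a protein of synaptic vesicle release, as the most abundant of the 15 genes and Chat and Camk2a at 0 UMIs in every area. The list of reactive glia genes showed the opposite, since TN1 had 876 CPM, TN2 2411, TN3 2677 and HC 664. Some counts of calls are also given without TN1. The rule had left out 332 spots of TN1 and 133 of TN2 for inhibitory neuron UMIs, but only 4 of TN3 and 3 of HC. The 4 genes of that rule still summed to 33.3 CPM in the myelin spots of TN1 and 11.1 in TN2.

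The 5 selecting genes encode proteins of mature oligodendrocytes. Mobp and Mog are myelin proteins, Opalin and Ermn belong to the oligodendrocyte membrane and cytoskeleton, and Hapln2 links matrix at nodes of Ranvier. Their values chose the spots and are given as a description only. The last spot kept and the first left out had sums of 2429.5 and 2419.9 CPM for TN1, 1712 and 1674 for TN2, 1863 and 1859 for TN3, and 2288 and 2286 for HC. The median sum was 3138 CPM in the myelin spots of TN1 and 155 in its other spots, 2483 and 54.9 in TN2, 2747 and 46.2 in TN3, and 2800 and 246 in HC. The threshold therefore cut through a continuous range in each area, and the lowest threshold, in TN2, lay well under that of TN1. A median myelin spot held 19, 19, 12 and 33 UMIs of the 5 genes, so single spots near the threshold were ranked on few molecules.

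Mobp stood at 1261, 1190, 1188 and 1126 CPM in the summed myelin spots, in the order TN1, TN2, TN3 and HC that is kept from here on, and at 117, 38.9, 41.5 and 155 in the other spots. Mog stood at 921, 743, 866 and 943 CPM in the myelin spots and at 78.3, 26.8, 30.1 and 85.0 in the others. Hapln2 stood at 580, 461, 483 and 608 CPM against 52.8, 19.2, 23.8 and 82.6. Ermn, at 169, 178, 207 and 186 CPM, was as even between areas as these. Opalin was not, with 323, 254, 117 and 101 CPM, and TN1 and TN2 lay above TN3 and HC.

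**Figure D1:**
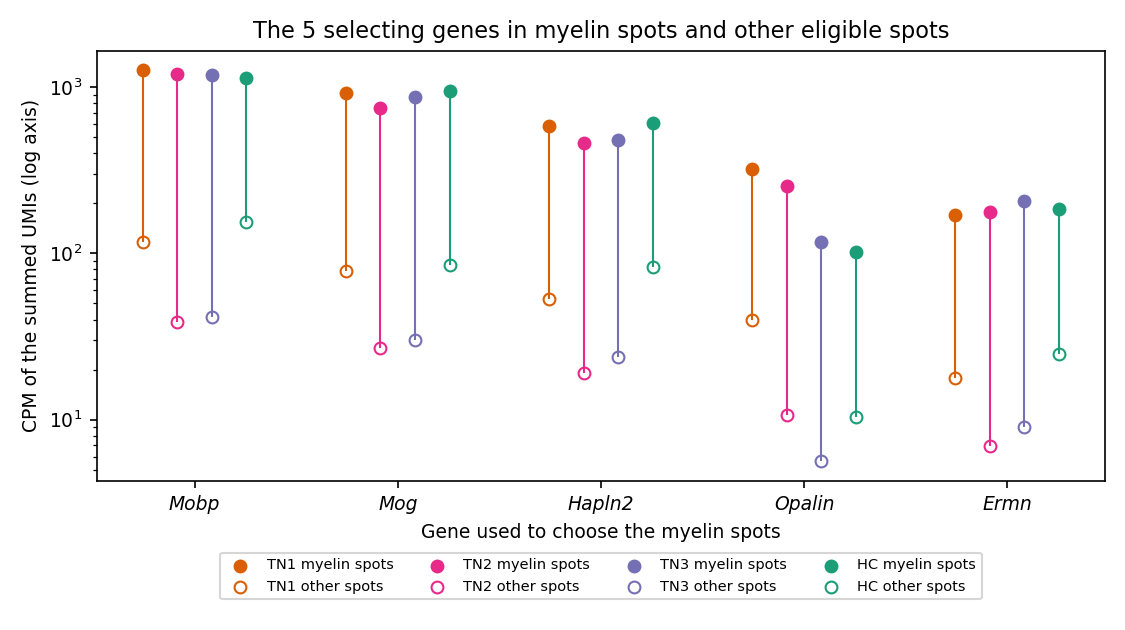
CPM of the summed UMIs (log axis) of the 5 selecting genes in each capture area, with filled points for the myelin spots and open points for the other eligible spots. Filled points lie far above open ones by construction, Mobp is nearly level between areas, and Opalin runs from 323 CPM in TN1 down to 101 in HC.

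Over single myelin spots the selecting genes differed in how often they were seen. Mobp had a UMI in at least 98.9% of the myelin spots of each area. Opalin had one in 76.8%, 68.5%, 41.1% and 60%, against 30.6%, 23.8%, 8.35% and 19.0% of the other, mostly deeper, spots. The spread within an area was wide even for the most abundant myelin transcripts. Mbp ran from 22924 CPM at the 10th percentile to 49380 at the 90th in TN1, and from 44882 to 82769 in HC. Gfap, the astrocyte intermediate filament, ran from 420 to 3505 CPM in TN1 and from 2854 to 9766 in TN2, a wider relative range than that of Mbp in both areas.

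The name of the spots was checked against markers that the rule did not use. Of the 42 central myelin structure genes on a list, 33 were high enough to compare, and 22 of these were 2-fold or more higher in the myelin spots in all 4 areas, with none (0) lower. Over all 7362 genes compared, 277 were higher in this way (3.76%) and 501 lower (6.81%). The spots were chosen within this contrast, so such counts describe them and nothing more is read from them. The summed level of the list was 91343, 93420, 113861 and 134752 CPM in the myelin spots of the 4 areas, and between 24298 and 30289 CPM in the other spots of the 4 areas. The central myelin list lay above the median of the other spots in 99.2% of the myelin spots of TN1 and in every one of them in the other areas. The central myelin part of the label held by these markers. Spot positions were not used, so the place of the spots in the root was not checked.

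Mbp, encoding myelin basic protein and the most abundant gene of that list, stood at 31952, 38970, 51743 and 61777 CPM in the myelin spots, against 8949, 5268, 7908 and 14461 in the others, where Schwann cells also express it. Its level in the myelin spots was lower in TN1 and TN2 than in TN3 and HC. Cldn11, the claudin of the tight junctions between myelin layers, stood at 1767, 2124, 1467 and 1615 CPM against 202, 354, 167 and 212. Mag, an adhesion molecule of the innermost myelin layer, stood at 1751, 1694, 1760 and 2325 CPM against 247, 178, 178 and 340. Apod, a lipid carrier, behaved differently, with 10970.1 and 3559 CPM in TN1, 10185 and 10727 in TN2, 11737 and 11302 in TN3, and 17172 and 3101 in HC. It separated the myelin spots from the others in TN1 and HC but not in TN2 and TN3.

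Of the genes outside the selecting set, Wscd1, Tmem125, Ca14, Klk6, Enpp6, Nkx6-2, Nipal4, LOC361016 and S1pr5 were among the 10 with the largest smallest-of-4 ratio to the other spots. Wscd1 stood at 402, 413, 270 and 435 CPM against 46.9, 20.6, 16.6 and 52.6. Klk6, a secreted protease of oligodendrocytes, stood at 1049, 1320, 1114 and 1746 CPM against 95.7, 57.5, 60.9 and 225. Enpp6, a choline phosphodiesterase that marks newly formed oligodendrocytes, stood at 132, 124, 133 and 211 CPM against 16.1, 5.49, 9.45 and 28.4. S1pr5, the sphingosine 1-phosphate receptor of this lineage, stood at 144, 189, 172 and 215 CPM against 19.8, 8.68, 7.75 and 29.4. Sema4d, Mag, Evi2a, Rasgrp3, Smtnl2, Slain1, Slc6a9, Ninj2 and Sall1 were among the next 10. Sema4d, a semaphorin made by oligodendrocytes, varied between areas, with 603, 434, 854 and 1401 CPM. For these 18 genes the log2 ratio, computed on CPM plus 1, was at least 2.64 in every area.

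**Figure D2:**
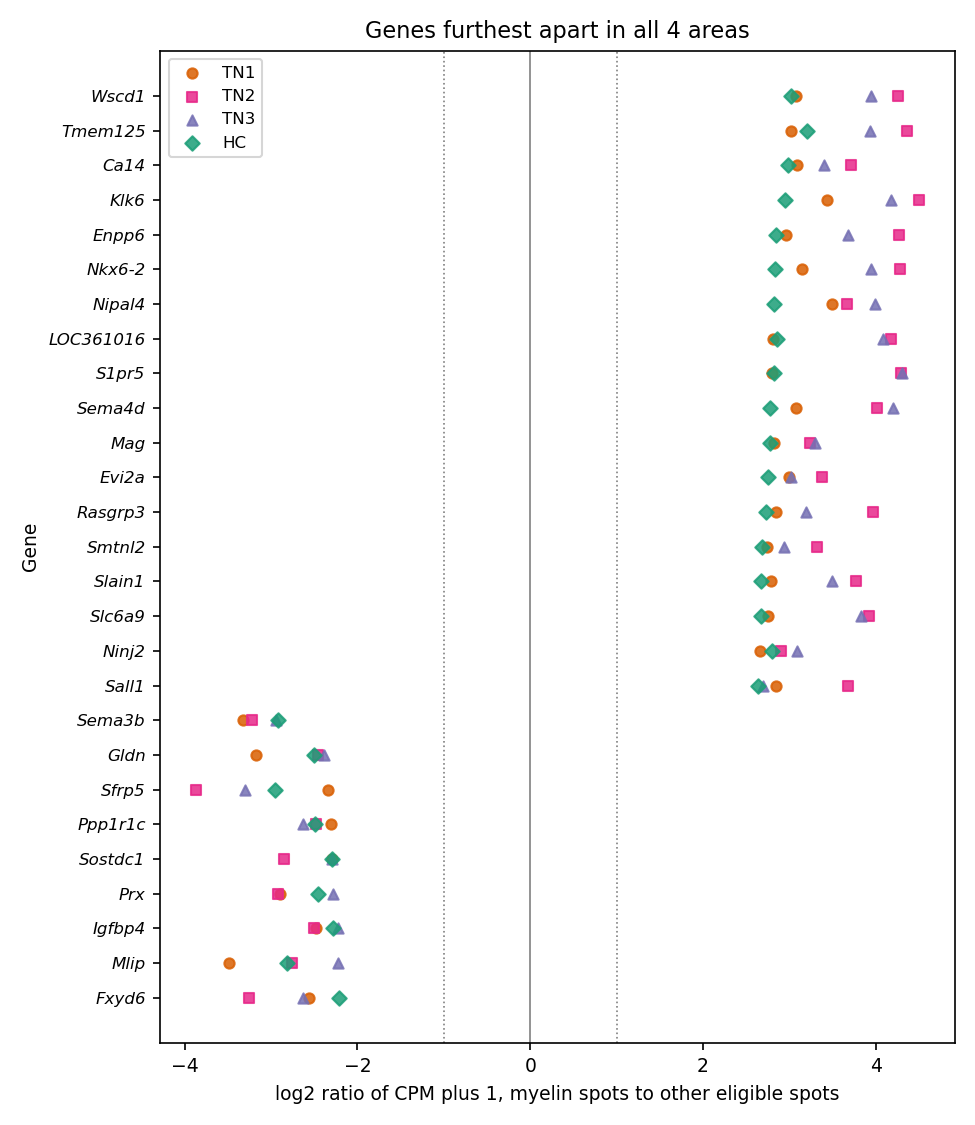
The log2 ratio of CPM plus 1 between myelin spots and other eligible spots for 18 of the 20 genes with the highest and 9 of the 10 with the lowest ratio, 1 point per capture area. Dotted lines mark 2-fold, and all points of the upper 18 genes lie right of 2 and all points of the lower 9 left of -2.

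Of 13 listed transcription factors of the lineage, 9 were high enough to compare. Zfp488 had 0 UMIs in the myelin spots of every area. Of the 9 compared, 6 were 2-fold or more higher in all 4 areas (3.76% of all genes) and none (0) was lower. Olig1 and Olig2 specify oligodendrocytes. Olig1 stood at 387, 360, 318 and 293 CPM in the myelin spots against 85.8, 26, 23.6 and 45.5 in the others, and Olig2 at 76.4, 89.6, 87.8 and 74.5 against 14.7, 3.95, 5.56 and 8.18. Myrf, which drives myelin gene expression in mature oligodendrocytes, stood at 272, 304, 234 and 346 CPM against 44.4, 38.7, 30.4 and 55.9. Nkx6-2, a homeobox factor of mature oligodendrocytes, stood at 148, 138, 132 and 146 CPM against 15.8, 6.17, 7.68 and 19.6. Sox10, which Schwann cells use as well, stood at 235, 241, 268 and 265 CPM against 150, 268, 272 and 151. It was higher in the myelin spots in TN1 and HC but not in TN2 and TN3. The list of progenitor and newly formed oligodendrocyte genes was less distinct, with 2 of 10 genes compared 2-fold or more higher (3.76% of all genes). Pdgfra, the growth factor receptor of progenitors, stood at 32, 45.4, 52 and 34 CPM in the myelin spots and at 35.0, 59.9, 65.8 and 15.7 in the others, so it was higher in the myelin spots in HC alone.

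Promoters of 3 oligodendrocyte genes are shown because Myrf binds a short motif, CTGGNAC, near genes that it controls. The sequences are the 250 bases before the transcription start in RefSeq, build GRCr8, written 5′ to 3′ along the gene, with capitals marking the motif in either direction. The genome build of the deposited counts is not given in the sources used here, and no count depends on these coordinates. Opalin lies on the minus strand at chr1:249858191-249858440, Hapln2 on the minus strand at chr2:175794439-175794688, and Mag on the minus strand at chr1:95291045-95291294.
Opalin: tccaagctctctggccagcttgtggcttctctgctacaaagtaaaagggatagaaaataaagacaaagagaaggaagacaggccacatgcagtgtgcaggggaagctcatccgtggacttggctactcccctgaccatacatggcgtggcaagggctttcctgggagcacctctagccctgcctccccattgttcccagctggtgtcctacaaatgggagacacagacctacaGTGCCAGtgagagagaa
Hapln2: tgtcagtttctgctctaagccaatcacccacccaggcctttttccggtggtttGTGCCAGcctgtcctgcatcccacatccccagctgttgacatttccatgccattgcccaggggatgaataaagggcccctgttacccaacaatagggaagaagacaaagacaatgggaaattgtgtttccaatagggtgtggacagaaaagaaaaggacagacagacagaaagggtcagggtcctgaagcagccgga
Mag: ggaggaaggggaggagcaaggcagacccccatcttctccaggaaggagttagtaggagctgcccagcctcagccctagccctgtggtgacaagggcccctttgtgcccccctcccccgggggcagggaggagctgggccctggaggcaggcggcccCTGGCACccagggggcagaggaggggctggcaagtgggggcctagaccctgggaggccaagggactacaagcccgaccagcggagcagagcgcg
The motif began 17 bases before the start in Opalin, 197 in Hapln2 and 94 in Mag. Of the 20 leading genes and 5 selecting genes, 16 had a promoter entry and 8 of these held the motif, and it occurred in 14.8% of all 33469 promoters of the same length. The 3 promoters shown are among those that held it, whereas the promoter of the selecting gene Mobp held 0 matches. Only this motif was searched. A match describes the letters and is not a binding site.

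Peripheral myelin and sensory neuron genes were low in the myelin spots. Among the 10 with the lowest ratio were Sema3b, Gldn, Sfrp5, Ppp1r1c, Sostdc1, Prx, Igfbp4, Mlip and Fxyd6. Prx, the periaxin of Schwann cells, stood at 86.3, 65.3, 137 and 96.8 CPM in the myelin spots, against 647, 500, 669 and 535 in the others. Pmp22 stood at 1436, 1059, 1869 and 1285 CPM against 9030, 5377, 8682 and 5668. Of the 12 peripheral myelin genes compared, 11 were 2-fold or more lower in all 4 areas (6.81% of all genes). The summed list was at 3934, 3157, 5983 and 3538 CPM, with TN3 the highest, and not 1 myelin spot (0%) reached the median of the other spots of its area. Peripheral myelin RNA was thus present at a low level. Whether Schwann cells or RNA from neighbouring spots gave it was not tested.

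Other cell types were present in the same spots. Of 12 astrocyte genes compared, 9 were 2-fold or more higher in the myelin spots in all 4 areas (3.76% of all genes). The list summed to 4511, 10335, 7231 and 6443 CPM, against 1426, 1741, 2499 and 1548 in the other spots, and every myelin spot lay above the median of the others. Gfap, its most abundant gene, stood at 1660, 5866, 3784 and 3767 CPM, and Aqp4, the astrocyte water channel, at 640, 1223, 904 and 884. TN2 was the highest and TN1 the lowest in both. Microglia genes summed to 1287, 2494, 2068 and 1265 CPM, and C1qa, a complement subunit, was the most abundant of them. Sensory neuron genes were low, with 11 of 12 lower by 2-fold or more in all areas (6.81% of all genes). Tac1, encoding substance P, stood at 129, 56.4, 113 and 173 CPM against 669, 408, 435 and 939. Genes of blood and bone were uneven, at 5296, 7715, 20912 and 9289 CPM, mostly from the hemoglobin gene Hba-a2. The spots are therefore mixtures in which central myelin leads.

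Levels of the lists were also followed along the ranking by the selecting genes, as a description. When eligible spots were ordered by the sum of the 5 genes and cut into groups of 10%, the central myelin list in HC went from 134752 CPM in the myelin spots to 117176, 95418, 65938 and 29083 in the next 4. In TN2 it went from 93420 to 55613 and then to 27019. The peripheral myelin list went in the opposite order, from 3538 CPM in the myelin spots of HC to 9349.7 in the fourth group and 30894 in the fifth, and from 3157 to 4395 and 16991 over the first 3 groups of TN2. Astrocyte genes went from 7231 to 10189.8 and 8930 CPM over the first 3 groups of TN3 and were also higher in the second group than in the first in TN1 and HC. The central myelin list thus fell over fewer groups in TN2 and TN3 than in HC and TN1. The selecting genes set this order and spot positions were not used, so the extent of central tissue was not measured.

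**Figure D3:**
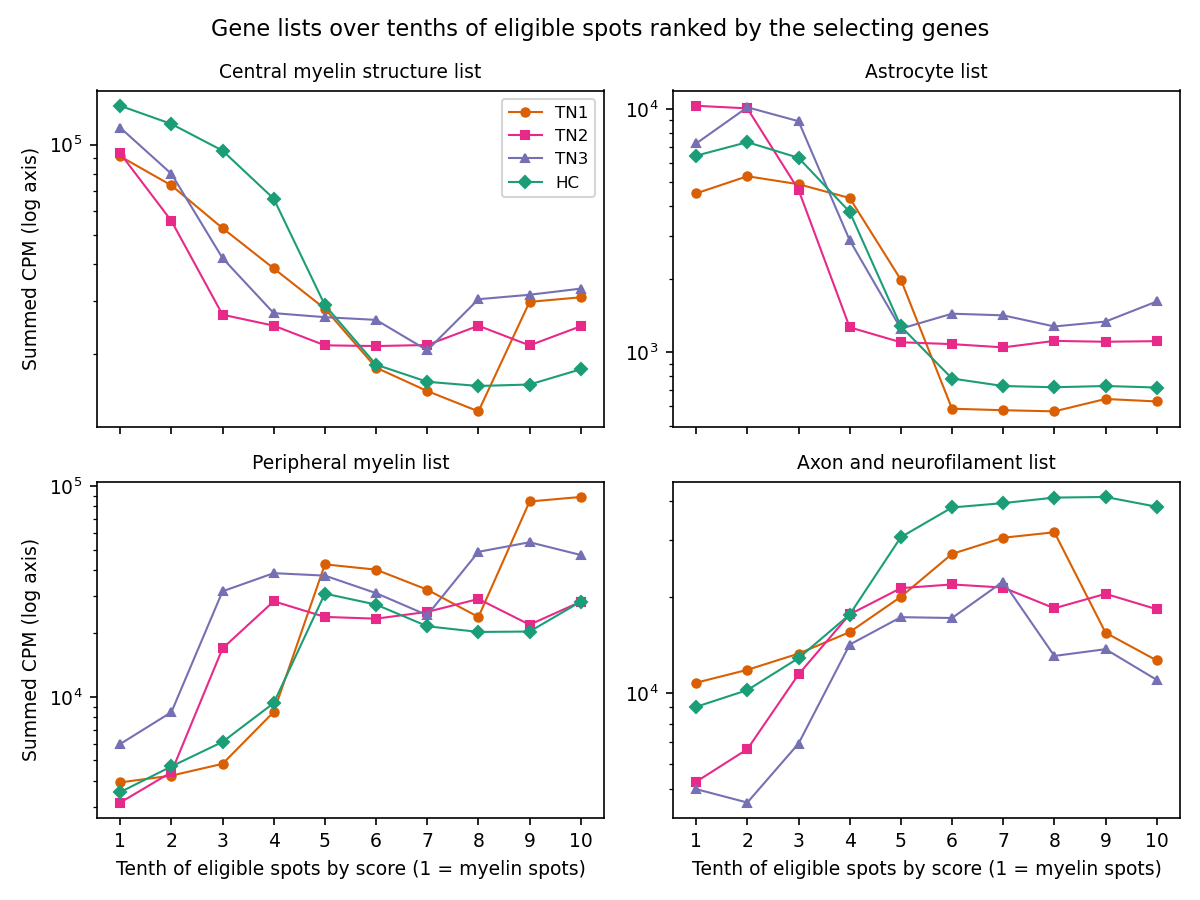
Summed CPM (log axis) of 4 gene lists in successive groups of 10% of the eligible spots of each capture area, ordered by the sum of the 5 selecting genes, the first group being the myelin spots. Central myelin genes fall and peripheral myelin genes climb along the order, within about 3 groups in TN2 and TN3 and about 5 in TN1 and HC, and astrocyte genes are highest in the second group in TN1, TN3 and HC.

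Lipid synthesis genes were partly shared with the other spots. Of 19 myelin lipid genes compared, 6 were 2-fold or more higher in all 4 areas (3.76% of all genes) and 1 was lower (6.81%). Ugt8, which makes galactocerebroside, stood at 1522, 1065, 1662 and 1954 CPM in the myelin spots against 433, 179, 339 and 357 in the others. Fa2h, which hydroxylates the fatty acids of myelin lipids, stood at 709, 507, 653 and 871 CPM against 219, 108, 176 and 193. Of 22 cholesterol synthesis genes compared, 3 were 2-fold or more higher in all areas (3.76% of all genes). Hmgcs1, an early enzyme of that pathway, stood at 1304, 678, 1436 and 1803 CPM against 754, 380, 447 and 726. In iron handling, Tf, which oligodendrocytes make as an iron carrier, stood at 4722, 4590, 4164 and 5758 CPM against 659, 412, 758 and 897. Node and paranode genes were mixed. Cntnap1, an axonal protein of the paranode, stood at 50.5, 34.3, 20.6 and 51.4 CPM against 135, 94.8, 64.8 and 226.

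The comparison of TN with HC asked whether central myelin differed after compression of the root. UMIs summed over the myelin spots of each area were fitted with edgeR's quasi-likelihood test, with 3 TN sums against 1 HC sum, 2 residual degrees of freedom and the Benjamini-Hochberg adjustment over 8133 genes. HC has no replicate and is assumed to vary like the TN areas. No gene (0, background 0.0%) passed an adjusted p of 0.05, and the smallest adjusted p was 0.926. Without adjustment 253 genes had a p under 0.05 (3.11%), 167 higher in TN (2.05%) and 86 lower (1.06%). DESeq2 also called 0 genes, with 109 under 0.05 unadjusted (1.34%). Leaving out TN1 changed this, with 337 of 7936 genes called (4.25%), 221 higher (2.78%) and 116 lower (1.46%), a fit with 2 TN sums against 1. Leaving out TN2 or TN3 left 0. The following values are thus descriptions of the 4 areas, and a call without TN1 is named as such. Levels of single genes are on the scale of CPM with TMM normalization, and sums of lists are CPM without it. In the later test of the difference, levels of Pvalb, Car2, Gal and Apod were normalized over both sets of spots. The level of 1 gene can therefore differ a little between passages. In such sums, fewer cells of a type and less RNA per cell cannot be told apart.

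Central myelin genes lay close to HC or below it. The spots of each area were chosen on 5 other genes of the same myelin, with a threshold that differed between areas. The rule therefore bears on these levels, and its part was not tested. Of 35 tested, 24 had a negative log2 fold change and 11 a positive one, and in 15 all 3 TN areas lay below HC, in 5 above. The median was -0.13, against 0.04 over all genes tested, where all 3 TN areas lay above HC for 20.9% of genes and below it for 20.8%. Mbp stood at 31622, 38561 and 54361 CPM in TN1, TN2 and TN3 and at 63512 in HC, a log2 fold change of -0.61 (SE 0.31). All 3 TN areas lay under HC, but TN3 was closer to HC than to TN1. Mitochondrial genes ran in the reverse order, with 144576, 132023 and 115669 CPM in TN1, TN2 and TN3 and 94931 in HC. Their part was not tested. Mag stood at 1733, 1676 and 1849 CPM (1753 ± 88.1, SD, n = 3) and at 2390 in HC, with -0.45 (SE 0.23). Cnp, a myelin enzyme, stood at 2849, 2799 and 3289 CPM and at 3446 in HC. Apod stood at 10857, 10078 and 12331 CPM and at 17654 in HC, with -0.67 (SE 0.24), and was the central myelin gene called lower without TN1 (1 of 35, where 1.46% of all genes were, adjusted p = 0.0104, edgeR). Aspa, which cleaves N-acetylaspartate in oligodendrocytes, lay above HC, with 137, 115 and 151 CPM against 95. None of these genes passed the test over all 3 TN areas.

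The selecting genes and the transcription factors showed no common direction. Mobp stood at 1248, 1178 and 1248 CPM and at 1158 in HC, although the rule chose spots on it. Opalin stood at 320, 252 and 123 CPM and at 104 in HC. Among the 10 transcription factors tested, St18, a zinc finger factor, stood at 26.8, 26.3 and 23.9 CPM and at 47.5 in HC, with a log2 fold change of -0.88 (SE 0.30). Myrf stood at 270, 301 and 246 CPM and at 356 in HC, and Sox10 at 233, 239 and 281 and at 272. Olig1 lay slightly above HC in all 3, with 383, 356 and 334 CPM against 302. The list median was -0.04 and its sign changed with the choice of spots. Progenitor genes had a median of 0.26, and 8 of 10 were positive, but the median ranged from 0.10 without TN3 to 0.46 without TN1, and that of TN1 alone was -0.09. Enpp6 stood at 131, 123 and 140 CPM against 217 in HC, with -0.72 (SE 0.24).

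Cholesterol synthesis genes lay below HC. All 22 tested had a log2 fold change below 0, and in 17 all 3 TN areas lay below HC (20.8% of all genes). The median was -0.59, with medians of -0.42 for TN1, -1.27 for TN2 and -0.27 for TN3. Msmo1, a sterol methyl oxidase, stood at 587, 370 and 651 CPM and at 997 in HC (-0.90, SE 0.32). Hmgcs1 stood at 1291, 671 and 1509 CPM and at 1854 in HC. Srebf2, the transcription factor that controls the pathway, stood at 187, 139 and 169 CPM and at 254 in HC. TN2 was the lowest area for each of these 3 genes and HC the highest, with no overlap. None (0) of the 22 passed the adjusted threshold, and 9 were called lower without TN1, where 1.46% of all genes were. The median was -0.69 without TN1 and -0.38 without TN2. Sensory neuron genes had a median of -0.54 over 11 genes, and in 5 all 3 TN areas lay below HC (20.8% of all genes). The median of TN1 alone was 0.02. Without TN1 the sensory neuron median was -0.90, with 5 of 11 genes called lower (1.46% of all genes). In the other eligible spots the cholesterol genes had a median of -0.49. Of 24 there, 16 lay below HC in all 3 TN areas (32.2% of all genes there). The difference of the contrast between the sets of spots passed the test for none (0) of these 24. Nothing particular to the myelin spots was thus shown for cholesterol genes. TN2 was also the area with the highest astrocyte level, and the part of that was not tested.

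Most genes of other myelin lipids lay below HC, less far. Of 19 tested, 14 had a negative log2 fold change and 5 a positive one, with a median of -0.36. In 13 all 3 TN areas lay below HC (20.8% of all genes) and in 1 above (20.9%), and none (0) passed the test. Ugt8 stood at 1506, 1054 and 1746 CPM and at 2009 in HC, Fa2h at 701, 501 and 687 and at 895, and Abca2, a lipid transporter, at 956, 903 and 1021 and at 1261. In each, HC was the highest area. The range of the TN areas was wider than the distance of their mean from HC for Ugt8 and narrower for Abca2.

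**Figure D4:**
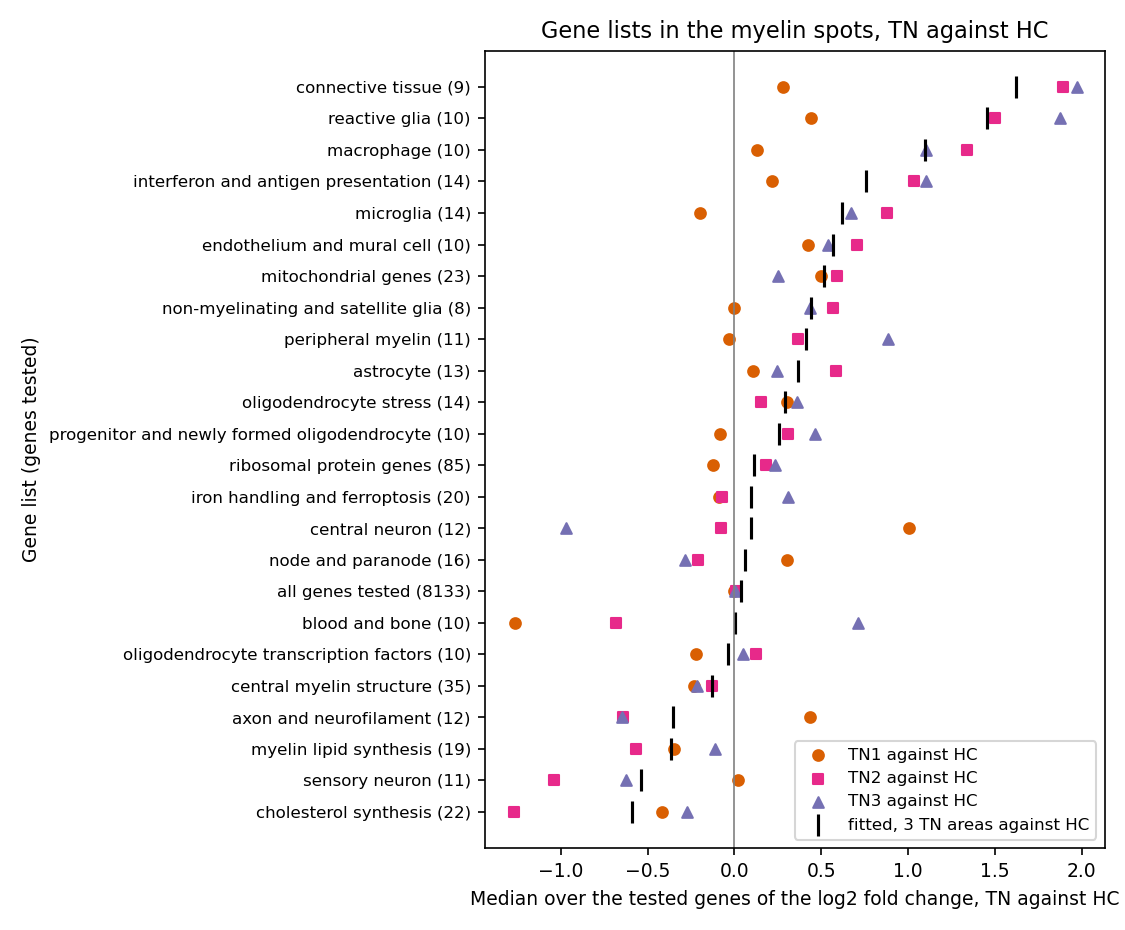
Median log2 fold change of each gene list in the myelin spots, with a colored point for each TN area against HC and a black bar for the fitted contrast of the 3 TN areas. Cholesterol synthesis lies lowest at -0.59 and connective tissue highest at 1.62, and TN1 lies nearer to 0 than TN2 and TN3 for connective tissue, reactive glia and macrophage genes.

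Genes of reactive glia lay above HC. Of 10 tested, 9 were positive and in 8 all 3 TN areas lay above HC (20.9% of all genes). The median was 1.45, with area medians of 0.44 for TN1, 1.5 for TN2 and 1.87 for TN3. Vim, an intermediate filament of reactive astrocytes, stood at 270, 1241 and 1736 CPM and at 212 in HC. Timp1, a metalloprotease inhibitor, stood at 52.4, 351 and 220 CPM and at 37.9 in HC. Cebpd, a transcription factor of acute phase responses, stood at 24.4, 42.7 and 34.2 CPM (33.7 ± 9.16, SD, n = 3) and at 7.5 in HC, with 2.16 (SE 0.47). TN1 was the area nearest HC in each. Gfap did not follow, with 1643, 5804 and 3976 CPM and 3873 in HC. None (0) of the 10 passed in edgeR over the 3 TN areas, and 6 had an unadjusted p under 0.05, all higher, where 2.05% of all genes had. The genes were more abundant outside the myelin spots, where the list summed to 2809, 7928, 7853 and 1846 CPM, and 5 of 9 compared were 2-fold or more lower in the myelin spots in all 4 areas (6.81% of all genes). The list had a median of 1.51 in the other spots, and none (0) of its genes passed the test of the difference.

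Immune and connective tissue genes moved with the same areas. Macrophage genes had a median of 1.10, microglia genes 0.62, interferon and antigen presentation genes, as 1 list, 0.76 and connective tissue genes 1.62. In each the median of TN1 was the lowest, from -0.20 to 0.28. Gpnmb, a lysosomal glycoprotein of lipid-laden macrophages, stood at 18.3, 294 and 173 CPM and at 11.7 in HC. Cd74, the invariant chain of class II antigen presentation, stood at 150.03, 231 and 244 CPM and at 77.5 in HC, and its difference of contrasts from the other spots, where it was further above HC, was -1.11 (adjusted p = 0.0091, edgeR), a call lost with DESeq2 and with the highest 20% of spots. Dcn, a proteoglycan of fibroblasts, stood at 90.3, 194 and 215 CPM and at 54.1 in HC. The summed macrophage list was at 5998, 11863, 9888 and 7169 CPM in TN1, TN2, TN3 and HC, and that of connective tissue at 413, 1762, 1691 and 536. Apoe alone gave 4602, 8596, 7457 and 6036 CPM of the macrophage sum. Of the 16 macrophage genes, 10 were high enough to test, and Cd163 and Mrc1 held no more than 6 UMIs in any area. Whether the list marks macrophages in these spots was not tested. Because TN1 had the lowest median in each list, leaving it out favours such calls. Without TN1 the median was 2.07 for connective tissue, with 9 of 9 genes called higher, where 2.78% of all genes were. For macrophages it was 1.26, with 7 of 10, and for microglia 0.80, with 5 of 14. For interferon and antigen presentation it was 1.02, with 4 of 13. The part of these cells in the other differences was not tested.

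Stress genes were led by a few members. Of 14 tested, in 8 all 3 TN areas lay above HC (20.9% of all genes) and in 1 below (20.8%), and the median was 0.29. Sgk1, a kinase induced by glucocorticoids and stress, stood at 167, 129 and 124 CPM (140.1 ± 23.5, SD, n = 3) and at 35.4 in HC, with a log2 fold change of 1.98 (SE 0.32), the lowest p among genes higher in TN. The 3 TN areas lay close together and far from HC. The adjusted p was 0.926 in edgeR over all areas. Sgk1 passed without TN1, but it was chosen by its p on these same sums, so that is no independent support. Atf3, an injury-induced transcription factor, stood at 18.3, 48.2 and 37.6 CPM and at 3.33 in HC (3.35, SE 0.66). In the other spots it stood at 88.8, 260 and 174 CPM against 5.34 in HC, so its level was higher outside the myelin spots in every area, and the difference of contrasts did not pass the test (-1.70, SE 0.61, adjusted p = 0.18, edgeR). Jun stood at 73.2, 88.7 and 92.2 CPM and at 40.8 in HC. Hspa5, a chaperone of the endoplasmic reticulum, was nearly level, with 232, 206 and 213 CPM and 197 in HC.

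Beyond the lists, the rule for named genes gave S100a11, Igfbp2, Cemip, Kif22, Sapcd1, Itih3 and Plac8 among those higher in TN. Igfbp2, a binding protein of insulin-like growth factors, stood at 80.5, 85.4 and 96.8 CPM (87.6 ± 8.35, SD, n = 3) and at 32.5 in HC, with 1.43 (SE 0.29). S100a11, a calcium-binding protein, stood at 32.9, 33.9 and 38.7 CPM and at 8.75 in HC. Itih3, a hyaluronan-binding protein, stood at 188, 125 and 88.8 CPM and at 37.9 in HC. Those lower in TN were Ass1, RT1-T24-4, Bglap, Dhrs4, Tekt1, Cdkn1c, Tmem52, S100g, Anxa5 and Nptxr. Ass1, argininosuccinate synthase, stood at 11, 9.85 and 10.2 CPM (10.4 ± 0.571, SD, n = 3) and at 47.9 in HC, with -2.20 (SE 0.35). The TN sums held 811385, 903843 and 922772 UMIs, so these TN values rest on few molecules. Their small SD may understate the spread. Cdkn1c, a cell cycle inhibitor, stood at 80.5, 70.1 and 117 CPM and at 201 in HC. RT1-T24-4, a class I histocompatibility gene, stood at 1.22, 3.28 and 1.14 CPM and at 27.5 in HC. Its TN values lay near the floor, and reads of such near-identical gene copies may be split between them. The adjusted p was at least 0.926 for each of the 20 genes chosen by this rule, Sgk1, Atf3 and Cebpd included, in edgeR. They passed without TN1, but were chosen by their p on these same sums, so that is no independent support.

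**Figure D5:**
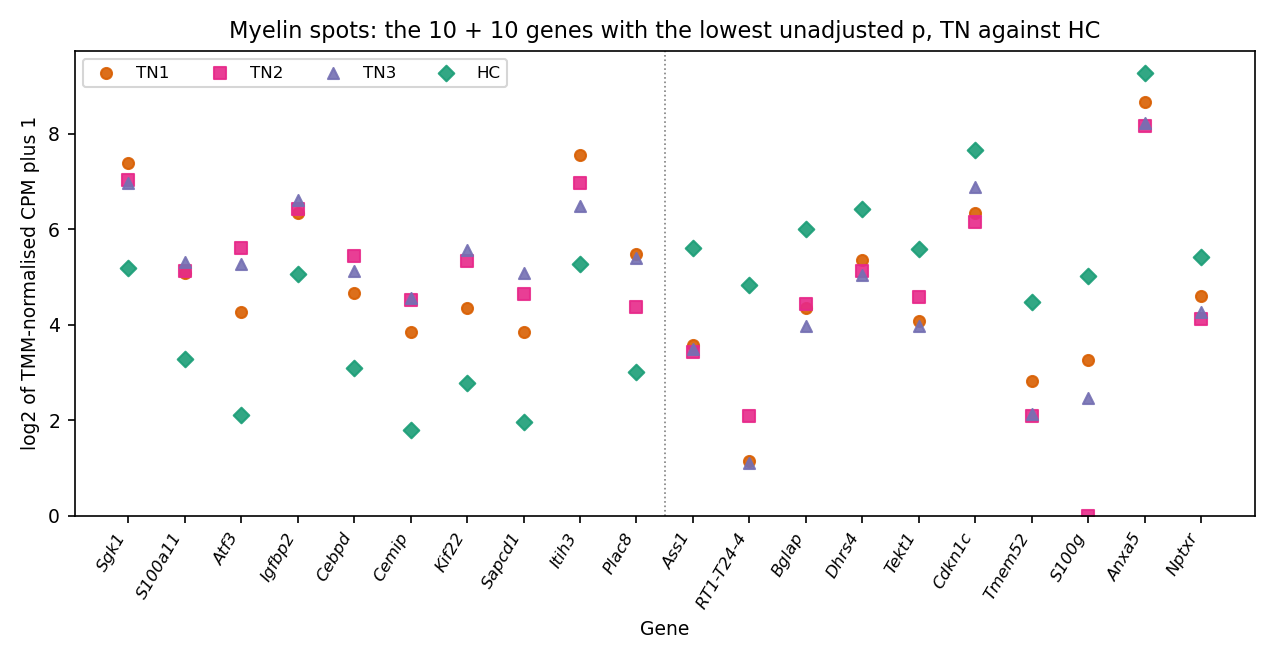
log2 of TMM-normalised CPM plus 1 in the myelin spots of each capture area for the 10 genes higher and the 10 lower in TN with the lowest unadjusted p, separated by the dotted line. HC lies outside the range of the 3 TN areas for all 20 genes, as the rule for choosing them required, and TN2 held 0 UMIs of S100g.

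Iron and calcium genes, some of which the study picked on these samples, were also followed. Of 20 genes of iron handling and ferroptosis tested, 12 were positive and 8 negative, with a median of 0.10 whose sign changed without TN3. Without TN1, 4 were called higher (2.78% of all genes) and none (0) lower. Tf stood at 4673, 4542 and 4374 CPM and at 5920 in HC, Fth1, the ferritin heavy chain, at 13671, 16323 and 18564 and at 21355, and Slc48a1, a heme transporter, at 445, 447 and 442 and at 634. HC was the highest area for all 3 genes, which are among those the study picked and so no independent evidence. Gpx4, which reduces lipid peroxides, stood at 1000.2, 859 and 928 CPM and at 1356 in HC, whereas Slc7a11, the cystine carrier, stood at 30.5, 94.2 and 43.3 and at 22.5. Of 8 calcium genes, chosen by the study on these samples and so not independent evidence, 4 were positive and 4 negative, with a median of -0.02. The area medians were 0.57 for TN1, -0.40 for TN2 and -0.66 for TN3. Without TN1 the median was -0.49, with 1 of 8 genes called lower, where 1.46% of all genes were.

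The difference between the TN contrast in the myelin spots and in the other eligible spots was tested as an interaction in edgeR, with the capture area as a block and 2 residual degrees of freedom. Of 14220 genes, 216 passed (1.52%), 116 with a higher contrast in the myelin spots (0.816%) and 100 with a lower one (0.703%). Selecting genes were left out of these counts. The number depended strongly on the tool and on the rule for spots, since DESeq2 called 7 (0.0492%), none (0) of them higher, and 0 were called when the highest 20% of spots were taken. Leaving out TN1 gave 399 (2.83%), TN2 115 and TN3 87. Without the genes of hemoglobins, ribosomal proteins and mitochondria, the split turned to 55 higher and 149 lower.

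Genes with a higher contrast in the myelin spots included several of central neurons. Among the 10 with the lowest p and the same sign in all 3 TN areas were Hapln4, Glrb, Vsnl1, Car2, Pvalb, Ina, Atp1b1, Lamp5 and Aak1. Pvalb, a calcium buffer of fast-firing neurons, stood at 219, 245, 34.2 and 70.1 CPM in the myelin spots of the 4 areas and at 263, 147, 98.6 and 251 in the others, a difference of log2 fold changes of 1.66 (SE 0.28). TN1 and TN2 lay above HC in the myelin spots and TN3 below it. Car2, a carbonic anhydrase that oligodendrocytes express, stood at 562, 305, 193 and 185 CPM and at 141, 36.5, 62.9 and 120, and all 3 TN areas lay above HC only in the myelin spots. The central neuron list had 6 of 13 genes called higher, where 0.816% of all genes were, and none (0) lower, and the list of blood and bone had 5 of 12 higher. All of these calls were lost with DESeq2 and with the highest 20% of spots. The median log2 fold change of central neuron genes, TN against HC, was 0.10 in the myelin spots and -1.17 in the others. In the others, 9 of 13 genes lay below HC in all 3 TN areas (32.2% of all genes there). In the myelin spots that median rested on TN1, at 1.003, with TN2 at -0.08 and TN3 at -0.97, and without TN1 it was -0.56, with 3 of 10 genes called lower (1.46% of all genes) and 1 higher (2.78%). The myelin spots of TN1 and TN2 held the most central neuron RNA, and the part of neurons was not tested. When spots with any inhibitory neuron UMI were left out, 42 genes were called higher and 130 lower.

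Among the 10 genes chosen in the same way for a lower contrast in the myelin spots were Gjb2, Gal, Flnc, Stac2, Apod, LOC100911545, Lyz2, Cxcl14 and Ptgds. Gal, a neuropeptide of injured sensory neurons, stood at 155, 407, 130 and 26.1 CPM in the other spots of the 4 areas and at 55.9, 145, 114 and 77.2 in the myelin spots (-2.60, SE 0.29). Apod stood at 3371, 9971, 10899.5 and 3143 CPM in the others and at 11063, 10286, 12339.5 and 18691 in the myelin spots (-1.94, SE 0.29). Of the 16 microglia genes, 6 were called lower, where 0.703% of all genes were, among them C1qc and Tyrobp, and none (0) of these 6 was called by DESeq2. All 20 genes chosen for this test passed again when any 1 TN area was left out, and DESeq2 kept 7 of them, which were all that it called. The 20 genes were chosen by their p in this same fit. Refits without 1 TN area reuse the sums that chose them and are no independent support. None (0) of the 20 passed with the highest 20% of spots, and 2 with the scaled log score, which ranks spots on log values of the 5 genes. With 5000 or more UMIs 14 passed, with the highest 5% 16 and after thinning 17.

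A few oligodendrocyte genes differed between the sets of spots while lying near HC or below it in the myelin spots. Nkx6-2 stood at 146, 137 and 139 CPM in the TN myelin spots and at 150 in HC, and its difference of contrasts was 1.05 (SE 0.26, adjusted p = 0.0092, edgeR). Klk6 had a difference of 1.11 (SE 0.26, adjusted p = 0.0047, edgeR), with a lower value in every TN area than in HC in either set of spots. The 5 selecting genes themselves had a median difference of 1.25, so the choice of spots bears on this measure. Igfbp2, among the genes named for TN, also passed the test of the difference in edgeR. In the others it stood at 123, 89.1 and 114 CPM and at 107 in HC, and the difference was 1.36 (SE 0.30, adjusted p = 0.0012). Dhrs4, a short-chain dehydrogenase, passed it among those named as lower in TN, with 24.8, 32.1 and 30.4 CPM and 29.6 in HC outside the myelin spots and a difference of -1.31 (SE 0.30, adjusted p = 0.0027). The calls of Nkx6-2, Klk6, Igfbp2 and Dhrs4 were all lost with DESeq2 and with the highest 20% of spots.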

How the data were processed

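Visium libraries of 4 capture areas (TN1, TN2, TN3 and HC) were analysed from the deposited matrix of raw UMI counts for 32623 genes and 6773 tissue-covered spots, which the authors made with Space Ranger 1.2.0 per the file headers. The genome build is not given in the sources used here. Areas were told apart by the barcode suffix, as the series description assigns it, and 0 columns of samples were unused. Total UMIs per area were 23546025, 38769935, 32239597 and 41335930 in TN1, TN2, TN3 and HC.

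UMIs of the myelin spots and of the other eligible spots were summed per area. For the comparison between these sets, genes with 10 or more CPM in at least 1 of the sums in every area were kept, and the log2 ratio was taken after adding 1 CPM, with no test. TN was compared with HC, and the difference of this contrast between the sets was tested, with edgeR 4.0.16 (filterByExpr, TMM, quasi-likelihood test, R 4.3.3) and a Benjamini-Hochberg threshold of 0.05. DESeq2 1.42.0 was an alternative, as were other filters, other rules for spots and the omission of each TN area. The fits were tested on simulated data. Nothing says that the TN areas differ by more than the animal and the section, so p-values measure the spread between these samples. The 25 gene lists held 396 genes, of which 385 were found.

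Named were all list genes, the 20 genes with the highest and the 10 with the lowest ratio over the 4 areas, and for each test the 10 genes in each direction with the lowest p among those where TN1, TN2 and TN3 departed from HC in 1 direction, in their level for the first test and in their ratio of myelin to other spots for the test of the difference. The spots, lists and genes were chosen with earlier results of these data known. Images, clusters and spot positions were not used here, and some genes that the rule named are not reported here.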

Additional observations from a re-analysis of the deposited data

Results flagged for a closer look

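The contrast of TN with HC differed between the myelin spots and the other eligible spots by the test of the difference itself for the 20 genes chosen for it, of which 18 are given here. The values are differences of log2 fold changes, positive where the myelin spots had the higher contrast. Hapln4 stood at 2.51, Ina at 2.36, Lamp5 at 2.33, Aak1 at 1.93, Glrb at 1.79, Vsnl1 at 1.74, Pvalb at 1.66, Car2 at 1.60 and Atp1b1 at 1.55. Gjb2 stood at -3.24, Stac2 at -2.93, Gal at -2.60, Flnc at -2.28, LOC100911545 at -1.99, Apod at -1.94, Lyz2 at -1.87, Cxcl14 at -1.86 and Ptgds at -1.70. With DESeq2 the 9 positive ones and Apod, Cxcl14 and Ptgds did not pass.

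Spots left out for inhibitory neuron UMIs also carried the 5 selecting genes. Their sum was 755 CPM over 332 such spots in TN1 and 614 CPM over 133 in TN2, above the 342 CPM over 3 spots in HC, whereas the 4 such spots of TN3 had 106 CPM, below HC. Of these spots, 15 in TN1 (4.52%) and 15 in TN2 (11.3%) lay past the threshold of their area. Central myelin RNA was thus also found in spots outside the set. The group of 3 TN areas was too small for a test of single outlying samples.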

How the results depend on the processing

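The number of genes called for TN against HC was 0 in every setting but one and ranged from 0 to 337 when a TN area was left out, the 337 without TN1. The 216 genes called for the difference of contrasts became 7 with DESeq2, 140 with no filter, 74 with the highest 5% of spots, 0 with the highest 20%, 48 with 5000 or more UMIs, 2 with a scaled log score, 61 after thinning to 2000 UMIs and 127 among spots under the median astrocyte level, and ranged from 87 to 399 when a TN area was left out. The median log2 fold change of central myelin genes, -0.13, was -0.34 with the highest 20%, -0.38 with 5000 or more UMIs, -0.29 with the scaled log score and -0.19 under the median astrocyte level. For transcription factors, -0.04 became 0.0098 with no filter, 0.20 with the highest 5%, 0.032 with 1 threshold for all areas and -0.24 with the highest 20%, and ranged from -0.077 without TN2 to 0.061 without TN1. For iron genes, 0.10 became -0.0088 under the median astrocyte level and ranged from -0.058 without TN3 to 0.17 without TN1. For stress genes, 0.29 became 0.18 with 5000 or more UMIs, 0.19 without any inhibitory neuron UMI and 0.41 under the median astrocyte level. The cause of these changes was not tested. The other 162 values of list medians kept their direction and moved by less than the spread of the TN areas. Among them cholesterol genes went from -0.59 to -0.38 and myelin lipid genes from -0.36 to -0.24 without TN2. Microglia genes went from 0.62 to 0.30 under the median peripheral myelin level. Interferon and antigen presentation genes went from 0.76 to 0.38 with no filter and to 0.44 after thinning. Among named genes, 293 values for TN against HC kept their side of the threshold and 20 passed it, all 20 without TN1, and for the difference 256 were kept and 64 no longer passed. No paired analysis was possible because HC is 1 sample and shares no more than 1 replicate number with TN. With 1 HC library and between 811385 and 2468564 UMIs in the sums, genes of low level could not be compared.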

Other observations

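Mitochondrial genes summed to 144576, 132023, 115669 and 94931 CPM in the myelin spots of TN1, TN2, TN3 and HC, against 101229, 72559, 78154 and 62284 in the other spots. Of 23 tested, in 15 all 3 TN areas lay above HC (20.9% of all genes) and in none (0) below (20.8%). The median log2 fold change was 0.52, and none (0) passed the test over all areas. Without TN1 the median was 0.37, with 4 of 23 called higher (2.78% of all genes). The test of the difference called 3 of 35 higher (0.816% of all genes), calls lost with DESeq2 and with the highest 20% of spots. Endothelial and mural cell genes summed to 299, 353, 375 and 228 CPM. In 8 of 10 tested all 3 TN areas lay above HC (20.9% of all genes), with a median of 0.57. Axon and neurofilament genes summed to 10757, 5266, 4994 and 9040.1 CPM, with TN2 and TN3 below TN1 and HC, and without TN1, 6 of 12 were called lower, where 1.46% of all genes were, and 1 higher, where 2.78% were. Over all areas none (0) passed in edgeR, and 2 had an unadjusted p under 0.05, both higher.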
